A study of Saccharomyces cerevisiae with 2 samples.

Results

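Yeast open reading frames (ORFs) whose messenger RNAs end unusually far from the stop codon are described here. An ORF was taken when its downstream window, positions 1 to 400 nt after the stop codon, held at least 100 reads on the deposited scale and its deposited read-weighted mean poly(A) position, called its mean endpoint below, exceeded 250 nt in both replicates. Of the 5798 ORFs in the tables, 4901 passed the read minimum in both replicates, and 339 of these passed the location rule, 6.92% of those that could. The members were thus selected on their read totals and mean endpoints, so endpoints and everything else read from the same profiles are a description and carry no test.

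The samples were 2 biological replicates of strain JZY65, in which the coding sequence of RPB4 is deleted. RPB4 encodes a subunit of RNA polymerase II that forms a stalk with Rpb7. The cells grew at 30 °C in YPD, a rich glucose medium, to mid-log phase, and total RNA was profiled by 3' READS, a sequencing method in which every read marks a nucleotide to which a poly(A) tail was joined. Both samples formed 1 group and no parental strain was analysed here, so the values describe this mutant alone and none can be read as a consequence of losing Rpb4. The labels give neither the parent nor any other allele.

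The 3' end of a yeast mRNA is made when a cleavage and polyadenylation complex cuts the nascent transcript downstream of the stop codon and adds adenosines. Budding yeast recognises such sites through degenerate A- and U-rich elements, and 1 gene usually uses a cluster of neighbouring sites. The stretch from the stop codon to the poly(A) tail is the 3' untranslated region, which can carry binding sites for proteins that control localisation, translation and decay.

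The windows of all ORFs held 27375875 reads in replicate 1 and 24905701 in replicate 2. Reads inside RPB4 numbered 0 in both replicates, against 4486 and 4066 reads in its downstream window, which allows shares of up to 0.0669% and 0.0738%. Members had medians of 1171 and 1162 window reads, and all ORFs past the minimum had 1416 and 1389. Together the members held 4.82% and 5.06% of the window reads of the ORFs past the minimum. At the lowest member depth, 113 reads in replicate 2, a share near 50% carries a 95% Wilson interval from 40.5% to 58.6%, and at the median of 1162 reads it runs from 47.1% to 52.9%. These intervals cover counting error only, because the labels name no molecular identifiers, and without them copies made by PCR are not independent molecules.

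The members' mean endpoints had medians of 288.4 and 288.6 nt, against 122.3 and 123.6 nt for all ORFs past the minimum. Averaged over the replicates they ran from 250.5 nt in URA1 to 397.5 nt in RIP1, with a middle range between quartiles of 266.0 to 327.7 nt. Of the 339, 202 lay below 300 nt, 137 lay at 300 nt or beyond, and 42 of those 137 at 350 nt or beyond. With every member weighted equally, 33.9% of window reads fell in 251 to 300 nt in both replicates, 27.3% in 301 to 350 nt in both, and 22.4% and 22.5% in 351 to 400 nt. The remaining share thinned towards the stop codon, and the first 50 nt held 0.650% and 0.587%.

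**Figure D1:**
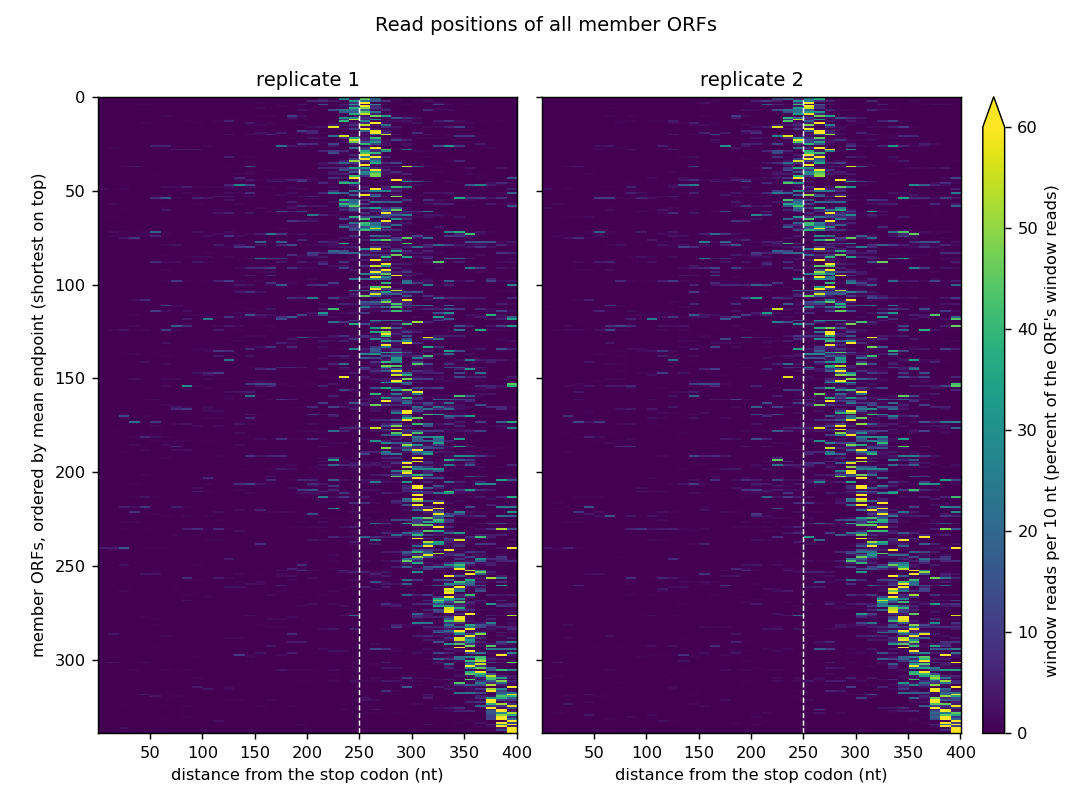
Share of each member's window reads per 10 nt (colour, percent) against the distance from the stop codon in nt, with 1 row for each of the 339 members, ordered by mean endpoint, and 1 panel for each replicate; the dashed line marks 250 nt. Most rows hold 1 bright cluster that moves outward down the panel, and in the lowest rows the cluster meets the end of the window at 400 nt.

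URA1, for dihydroorotate dehydrogenase of pyrimidine synthesis, stood closest to the limit from inside, at 250.9 and 250.1 nt. NFI1 (252.0 and 250.2 nt), ASE1 (250.9 and 251.5 nt) and NEM1 (250.7 and 251.8 nt) followed. Just outside were MGS1 at 249.5 and 249.4 nt and BOI2, GCD11 and TPS2, which lay below the limit in replicate 1 (247.4, 248.0 and 248.2 nt) and above it in replicate 2 (252.5, 251.5 and 251.2 nt). In all, 36 ORFs exceeded 250 nt in 1 replicate only, so the border between members and other ORFs falls inside the spread of the replicates.

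The 2 replicates gave close values for most members. Their mean endpoints lay within 5 nt of each other for 226 of the 339 members (66.7%) and for 3739 of all 4901 ORFs (76.3%), and the median difference was 3.04 nt among members and 2.01 nt overall. The most used position was the same nucleotide in both replicates for 282 members (83.2%) and 4115 of all ORFs (84.0%). More than 20 nt separated the replicates in 8 members (2.36%) and in 92 of all ORFs (1.88%).

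MCM1, which encodes a MADS-box transcription factor of mating-type and cell-cycle genes, differed most, with a mean endpoint of 348.2 nt in replicate 1 and 269.4 nt in replicate 2. Of its 448 reads in replicate 1, 3.79% lay within 150 nt of the stop codon (Wilson interval 2.38% to 5.99%), and of its 415 reads in replicate 2, 24.6% did (20.7% to 28.9%). The gene is named for having the largest difference, so these intervals describe its depth and test nothing. The small uncharacterized ORF YJL047C-A had 289.6 and 348.4 nt, with 27.7% and 11.4% of reads in the first 150 nt. IZH3, a membrane protein of zinc homeostasis, had 267.2 and 303.2 nt. FMP45, HMS2, BEM3, BMT6 and TGS1 differed by 20.1 to 25.4 nt, and their directions were mixed.

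**Figure D2:**
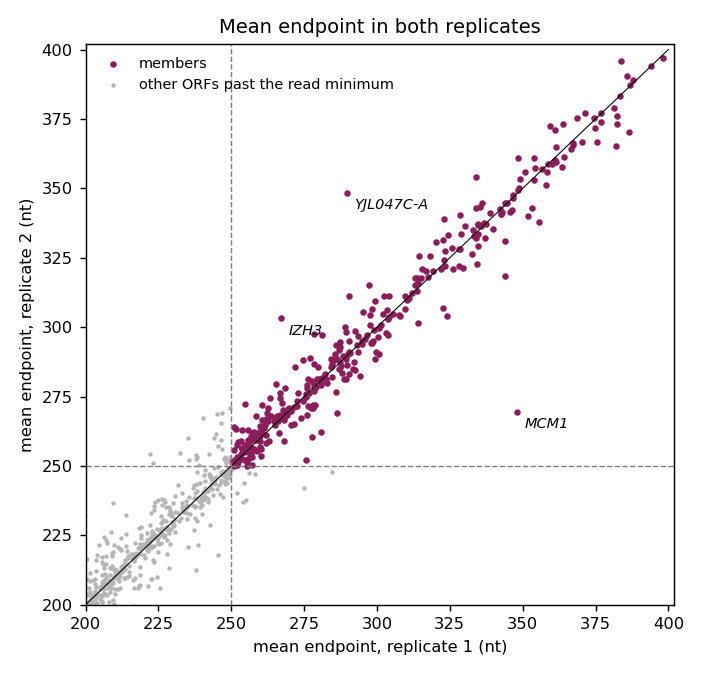
Mean endpoint in replicate 2 against replicate 1, in nt, for members (red) and other ORFs past the read minimum (grey), each point 1 ORF; the line marks equal values and the dashed lines 250 nt. Most members lie along the line, and MCM1, YJL047C-A and IZH3 stand away from it.

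The 8 members described next had the most reads among those that carry a standard name and whose window meets no feature on the same strand. YHB1, the flavohaemoglobin that detoxifies nitric oxide, had 262101 and 203208 window reads and mean endpoints of 260.7 and 261.9 nt. KSH1, an essential secretory-pathway protein, had 58509 and 59508 reads at 269.3 nt in both. URA1 had 54328 and 51860 reads. SED1, a major cell wall glycoprotein, had 47972 and 50168 reads at 287.4 and 294.6 nt, and the glucanase BGL2 had 20835 and 48692 reads at 250.8 and 255.7 nt. RPS20, a protein of the small ribosomal subunit, had 35709 and 30092 reads at 289.5 and 288.6 nt. PET9, the main mitochondrial ADP/ATP carrier, had 23539 and 22816 reads at 266.8 and 274.5 nt, and the cell wall protein SIM1 12769 and 16392 reads at 319.3 and 320.1 nt. In each of these 8 genes the mean endpoints of the replicates lay less than 8 nt apart, while the read number of BGL2 differed most between them. The uncharacterized YDR524C-B, which carries no standard name, had 77315 and 62507 reads.

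Profiles within the group ran from a single nucleotide to broad fields. The spread of reads is given as the effective number of positions, the number of equally used positions that would have the same Shannon entropy. Its median was 9.26 and 8.76 in the members and 8.48 and 8.45 in all ORFs past the minimum. The most used position took a median of 32.6% and 33.7% of a member's reads, against 33.5% and 33.6% over all ORFs past the minimum. One position held more than 50% of reads in 62 members (18.3%) and in 938 of all ORFs (19.1%). The distance from the 10th to the 90th percentile of reads had medians of 55 and 54 nt in members and 44 and 45 nt overall.

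SSN2, a subunit of the Mediator kinase module, was the most focused member, with 95.8% and 97.8% of its 1769 and 1598 reads at position 334. EPL1, of the NuA4 histone acetyltransferase, put 84.6% and 83.9% at position 384. BUD31, a splicing factor, put 83.5% and 86.9% at 388. JSN1, a Pumilio-family RNA-binding protein, had 86.1% and 75.9% at 279, TOS6, a cell wall protein, 80.5% and 83.3% at 256, and ATG1, the kinase that starts autophagy, 79.4% and 82.1% at 350. AGP2, a permease, and NFI1, a SUMO ligase, were of the same kind, with 70.7% and 77.0% at 303 in AGP2. In each of these genes the same nucleotide led in both replicates.

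At the other end, PFK2, the beta subunit of phosphofructokinase, had the most dispersed profile, with an effective number of 27.5 averaged over the replicates. Its leading position, 329, took 18.0% and 15.0% of 6005 and 6779 reads. SEC13, a coat protein shared by COPII vesicles and the nuclear pore, had an effective number of 26.2, and its leading position was 143 in replicate 1 and 301 in replicate 2, with 11.9% and 12.3% of reads. SGF73 of the SAGA complex followed at 22.6, then PTC3, a protein phosphatase, at 19.7, SEF1, a putative transcription factor, at 19.5 and NPL3, an mRNA-binding export factor, at 19.3.

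**Figure D3:**
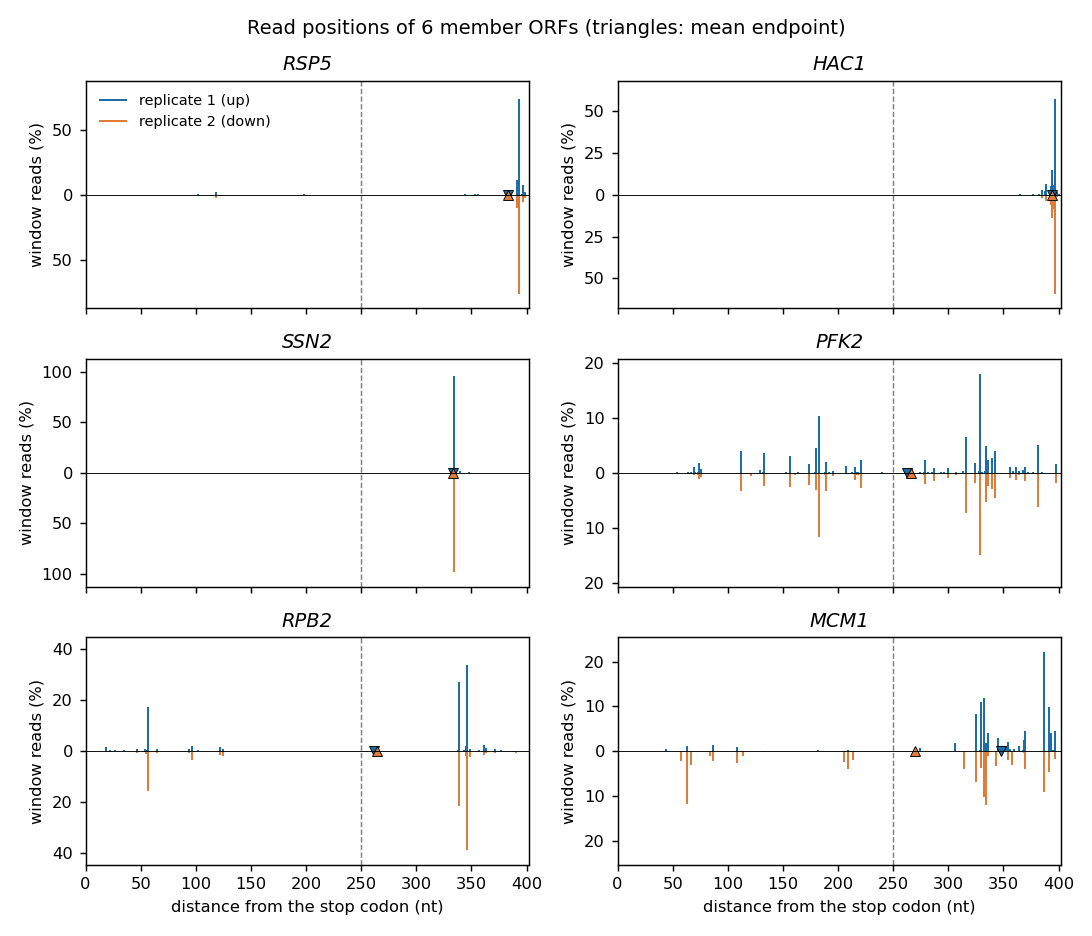
Share of window reads at each position (percent, replicate 1 upward and replicate 2 downward) against the distance from the stop codon in nt for RSP5, HAC1, SSN2, PFK2, RPB2 and MCM1, with triangles at the mean endpoints and a dashed line at 250 nt. SSN2 is a single spike, RSP5 and HAC1 end at the window's edge, PFK2 is spread out, and RPB2 and MCM1 hold separate proximal and distal clusters.

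A mean above 250 nt can come from distal sites alone or from a mixture with proximal ones. The first 150 nt held under 1% of reads in 180 members (53.1%), 1% to 5% in 90 (26.5%), 5% to 20% in 55 (16.2%) and more than 20% in 14 (4.13%). Over all 4901 ORFs past the minimum these classes held 428 (8.73%), 316 (6.45%), 372 (7.59%) and 3785 (77.2%). In 59 members (17.4%) no read fell within 150 nt in either replicate, against 100 of all ORFs (2.04%). For the members with 0 reads there in a replicate, their totals allow shares of up to 0.00504% to 2.48%. No member had its most used position within 150 nt in both replicates, and 301 (88.8%) had it beyond 250 nt in both. Over all ORFs these counts were 3271 (66.7%) and 390 (7.96%).

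RPB2, the second-largest subunit of RNA polymerase II, was a clear mixture. Of its 5893 and 6045 reads, 29.5% and 29.2% lay within 150 nt, mainly at position 57, and 70.5% and 70.8% beyond 250 nt, led by position 346. Between those zones lay 0.0509% and 0%. Its mean endpoint, 261.5 and 264.7 nt, therefore marks a stretch in which the gene has almost no ends, with 0.305% and 0.562% of reads within 50 nt of it. MPP10, a protein of the small-subunit processome, was similar, with 34.2% and 33.4% in the first 150 nt led by position 61 and a leading distal position at 344. In both genes the proximal share differed between replicates by less than 1 percentage point.

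CDC26, a subunit of the anaphase-promoting complex, had the highest proximal share, 45.6% and 42.5% of 226 and 221 reads. The prion-forming protein RNQ1 had 29.6% and 26.2%, and CSM2, of the Shu complex in recombination repair, 30.4% and 25.2%. TGS1, which trimethylates the caps of small nuclear RNAs, had 22.3% and 28.6%. LST8 of the TOR complexes, PIL1 of eisosomes, TIM18, ARP8, IZH3, SEC13, YPR071W and YFR020W completed the 14. In 43 members, fewer than 50% of reads lay within 50 nt of the mean endpoint (12.7%, against 7.37% of all ORFs past the minimum), so for these the mean describes no single cluster.

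Reads also reached the end of the window, where the measurement stops. The last 10 positions of the window held under 1% of reads in 241 members (71.1%), 1% to 20% in 68 (20.1%) and more than 20% in 30 (8.85%). Of these 30, 11 had more than 50%. Over all 4901 ORFs past the minimum the 3 classes held 4704 (96.0%), 164 (3.35%) and 33 (0.673%). In 177 members (52.2%) no read fell in these 10 positions in either replicate, against 4195 of all ORFs (85.6%). For the members with 0 reads there in a replicate, their totals allow shares of up to 0.00114% to 2.56%. Averaged over members, these 10 positions took 5.18% and 5.39% of reads, and the 10 positions before them 4.67% and 4.32%. Ends beyond 400 nt were not measured, so the mean endpoints of members with reads at the edge are limited by the window.

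In 16 members (4.72%) the most used position lay in the last 10 nt in both replicates, against 18 of all ORFs (0.367%). RIP1, the Rieske iron-sulfur protein of respiratory complex III (chromosome V, 107260 to 107907, plus strand), had 98.6% of its 280 and 215 reads there in both, with Wilson intervals of 96.4% to 99.4% and 96.0% to 99.5%. The last nucleotide of the window, 400, alone held 46.4% and 54.4% of RIP1 reads. HAC1, the transcription factor of the unfolded protein response (chromosome VI, 75179 to 76147, plus strand), had 87.1% and 92.0% of 3000 and 3808 reads in the last 10 nt, most of them at position 397. For both genes the profile is one cluster at the edge, and what lies past it was not measured.

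RSP5, the ubiquitin ligase of plasma membrane traffic (chromosome V, 410189 to 412618, plus strand), had 95.4% and 94.7% of 5361 and 5461 reads in the last 10 nt, with 73.9% and 76.0% at position 393. ART5, an arrestin-like adaptor that brings cargo to Rsp5, had 62.0% and 69.4% there. ERC1, a transporter of the multidrug and toxin extrusion family, had 93.3% and 98.8% of 434 and 321 reads. These 3 genes had fewer than 4% of reads within 150 nt in either replicate.

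MDH1, mitochondrial malate dehydrogenase, had 56.4% and 58.9% of its 2899 and 2939 reads at the edge. NAM7, the RNA helicase of nonsense-mediated decay, had 63.1% and 62.1%, and HIT1, an assembly factor of small nucleolar ribonucleoproteins, 70.8% and 73.5%. ISU1, the scaffold on which iron-sulfur clusters are built, led at the first of these 10 positions but had only 22.8% and 22.4% in the last 10 nt. The leading position of ISU1 belongs to a field of ends that starts before the edge, whereas the other 3 have most of their reads there.

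The remaining members of the 16 mixed an edge cluster with nearer ends. STB3, a transcription factor of ribosome-biogenesis genes, had 53.4% and 56.4% in the last 10 nt and only 20.7% and 16.1% of reads within 50 nt of its mean. PUF3, the Pumilio protein that binds mRNAs of mitochondrial proteins, had 44.3% and 42.2%. SFG1, a nuclear protein of pseudohyphal growth, had 30.6% and 28.6%. IZH3 had 38.5% and 44.6%, with 34.7% and 34.5% at position 400 itself, and YJL047C-A, YFR020W and YOR105W completed the group at 65.5% and 77.0%, 35.1% and 43.9%, and 47.4% and 58.6%. In YOR105W, an uncharacterized ORF, the edge share differed between replicates by more than in the other named genes of this group apart from YJL047C-A.

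The downstream surroundings of the members were wider than usual. The distance to the next annotated feature on either strand had a median of 420 nt for members, against 263 nt for all ORFs past the minimum. Under 250 nt of space was annotated for 54 members (15.9%), against 2288 of all ORFs (46.7%). For the 162 members with a convergent neighbour, one transcribed towards the member, the median was 349 nt, against 197 nt for 2616 ORFs. For the 162 members with a tandem neighbour, which lies ahead on the same strand, it was 518 nt, against 364.5 nt for 2048 ORFs. The other 15 members faced a feature without direction, such as a replication origin. No test of this difference was run.

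**Figure D4:**
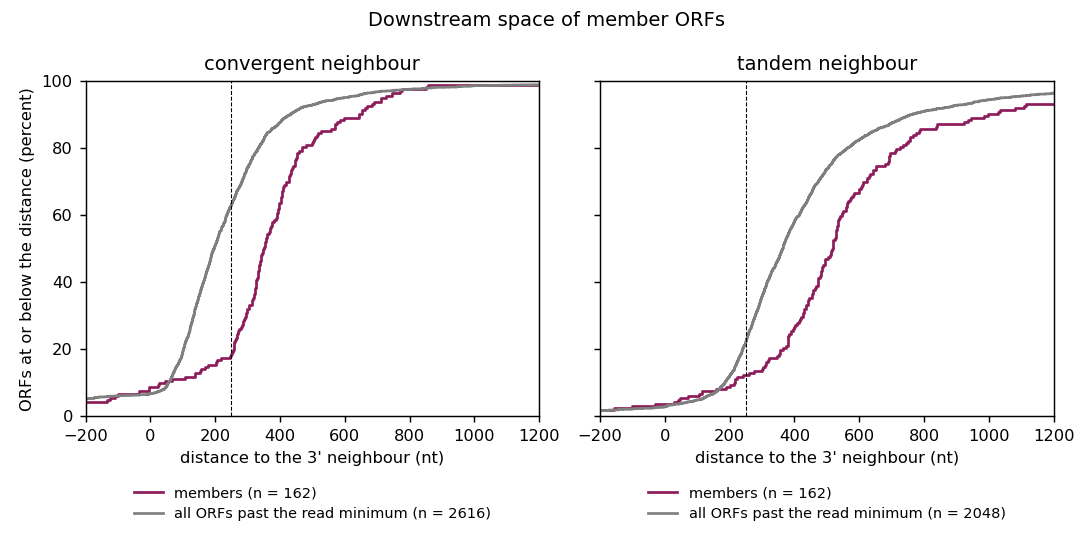
Cumulative percent of ORFs against the distance in nt to the downstream neighbour, for members (red) and all ORFs past the read minimum (grey), with convergent neighbours in the left panel and tandem ones in the right; the longest distances on either side are not drawn, and the dashed line marks 250 nt. The members' curves lie to the right of the others over most of the range, at medians of 349 and 518 nt.

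The mean endpoint of 73 members (21.5%) lay past the start of the annotated neighbour, and so did that of 987 of all ORFs (20.1%). The closest neighbours overlapped the members themselves. IMO32, a mitochondrial protein, shares its locus with NAG1 on the other strand, at a distance of -660 nt, where a negative value means overlap. Its mean endpoint was 312.0 and 312.2 nt. NPL3 (-427 nt), ISU1 (-372 nt), SSN2 (-363 nt) and CDC13 (-318 nt), the telomere-binding protein, have a dubious ORF as their annotated neighbour, which the tables do not list as a feature of its own. A dubious ORF was the annotated neighbour of 40 members (11.8%), against 433 of all ORFs (8.83%). Among members with a standard name, the farthest neighbours were those of AGP2 (1913 nt), RAD61, of the cohesin complex (1808 nt), ATF1, an alcohol acetyltransferase (1708 nt), the kinase CBK1 (1678 nt), SYC1 of the cleavage and polyadenylation factor (1604 nt) and PIP2, a transcription factor of peroxisomal genes (1476 nt). The mean endpoints of these 6 lay between 264.9 and 342.8 nt. The uncharacterized YLR287C and YCR099C had more room still, 2295 and 2227 nt.

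Overlap of the 400-nt window with another listed feature was also counted, since reads in such a stretch can belong to that feature. The window met a feature on the same strand for 27 members (7.96%), against 1169 of all ORFs (23.9%). It met a feature on the opposite strand for 91 members (26.8%), against 2297 of all ORFs (46.9%), and no member met both. For 221 members (65.2%) it met no listed feature, against 1449 of all ORFs (29.6%). A listed feature on their own strand was thus absent from the windows of 312 members.

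Of the 27 members with a same-strand feature ahead, 12 (44.4%) had more than 90% of their reads before that feature. More than 50% lay at or past its start in 9 (33.3%). Over all 1169 ORFs with such a feature these counts were 1072 (91.7%) and 42 (3.59%). In 3 of those 9 members nearly all reads lay past the far end of a small feature. More than 50% of reads did so in 4 of the 1169 ORFs. RCR2, a vacuolar protein, is followed 28 nt after its stop codon by the small ORF YDR003W-A, which ends at 150 nt, and 100% and 99.2% of its 3361 and 2878 reads lay beyond that end. YBR090C, an uncharacterized ORF, overlaps NHP6B, a high-mobility-group chromatin protein that ends at 143 nt, and 100% and 99.9% of its 5350 and 5293 reads lay beyond it. PIN2, a membrane protein named for prion induction, overlaps YOR105W, which ends at 31 nt, and 95.5% and 99.2% of 223 and 123 reads lay beyond it. Both PIN2 and YOR105W are members on shared reads, and in all 3 cases the reads also lie in the neighbour's own downstream window, so they cannot be assigned to either ORF from these tables.

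In the other 6 of the 9, most reads lay inside the coding sequence of the next gene. SWF1, a palmitoyltransferase, had 96.1% and 97.0% of 863 and 1071 reads inside ARO1, which begins 240 nt after its stop codon. USA1, of the endoplasmic reticulum degradation machinery, had 94.6% and 94.5% of 3243 and 3305 reads inside TSA1, the main peroxiredoxin, from 260 nt. BMT6, a ribosomal RNA methyltransferase, had 90.1% and 96.7% inside PER33 from 202 nt. EMP65 reached 77.2% and 72.0% inside COX15, MDH1 65.9% and 67.6% inside HOT13, and the transcription factor YAP3 55.2% and 61.2% inside ETP1. These reads are counted at once as downstream of the member and inside its neighbour.

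HAP5, of the CCAAT-binding complex, had 35.5% and 34.4% inside VTS1, and RKM4, a ribosomal lysine methyltransferase, 26.6% and 22.9% inside CTA1. GEP5 had 24.3% and 22% inside SUL2, EST1, a telomerase subunit, 16.9% and 14.5% inside BNA5, YHK8 14.1% and 17.8% inside FSH1, and DAS2 6.67% and 13.8% inside GCV1. The ends of these members start before the neighbour and run into it.

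Reads on the 2 strands were kept apart by the deposited tables. In the convergent pairs that hold a member, 1037 and 1019 shared positions carried at least 20 reads for the member, and at 0 of them did the other gene have the same number, while at 86.8% and 87.3% it had 0. Inside an opposite-strand feature, 39 of the 91 members that meet one had more than 50% of their reads, against 522 of the 2297 ORFs. VPS75, a histone chaperone, SMD1, a core spliceosome protein, DCR2, a phosphatase, and SNO1 each had 100% of reads there on average, running antisense to CWC25, PRP38, VPS38 and CTF13.

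When both ORFs of a convergent pair are each other's downstream neighbour and both pass the read minimum, their 3' ends can be set against each other. Of 118 such members, 0 had a partner that was also a member, and of all 1984 ORFs of such pairs 118 had a member as partner. The partners' median mean endpoint was 120.2 nt, against 125.4 nt over the 1984. The overlap of a pair was reckoned from the mean endpoints alone, which in mixed profiles mark no single cluster of ends. The 2 mean endpoints passed each other for 84 of the 118 (71.2%) and for 1506 of the 1984 (75.9%). The facing genes' endpoints were therefore near the median of their kind.

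The overlap of the mean endpoints exceeded 200 nt for 7 of the 118 members and for 48 of the 1984 ORFs of such pairs. Of the members' 7 pairs, 6 are named here. DCR2 and VPS38 overlapped by 484.7 nt, with mean endpoints of 314.2 and 315.9 nt for DCR2 and 134.7 and 136.6 nt for VPS38. MPA43 with RAD50, CDC43 with LYS5, TGS1 with PRM4, HSH49 with GNT1 and YLL032C with IRC19 overlapped by 298.8 to 370.9 nt. In each of these 7 pairs at least 74.5% of the member's reads lay inside an opposite-strand feature.

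Reads inside the ORF itself made up medians of 1.26% and 1.27% of ORF and window reads in members, against 1.11% and 1.09% for all ORFs past the minimum, and exceeded 10% in 54 members (15.9%) and 748 of all ORFs (15.3%). PUF2, a Pumilio protein, was highest at 80.7% and 72.6%, followed by IZH3 at 65.1% and 64%, CLN3, the G1 cyclin, at 60% and 67.1%, CHS6, of chitin synthase transport, at 72.2% and 51.8%, OST6 of oligosaccharyltransferase at 57.1% and 54.0%, and ADR1, an activator of glucose-repressed genes, at 56.8% and 54.0%. For these 6 the window holds less than the larger part of the gene's reads, so the mean endpoint describes a minority of their poly(A) ends. Members' ORFs had a median length of 1155 nt, against 1275 nt overall.

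The members' functions were counted with 23 gene lists, which hold 124 of the 339 members and leave 215 in none. The lists are not complete for the classes they name, so each share and rank covers the listed ORFs only. For example, the kinase list lacks the member VHS1 (361.5 and 364.9 nt), and the transcription factor list lacks YAP3. The cell wall list lacks the member SKN1 (382.2 and 376.2 nt), the paralog of KRE6. The shares below stand beside 6.92% over all ORFs past the minimum, a figure that the rule itself fixed, and no test was run. The list with the highest share was oxidative phosphorylation, with 11 of 38 ORFs (28.9%) and a median mean endpoint of 214.8 and 209.3 nt over the whole list, against 122.3 and 123.6 nt for all ORFs. RIP1, at 398.1 and 396.9 nt, was followed by SDH2, the iron-sulfur subunit of succinate dehydrogenase, at 358.2 and 355.7 nt, QCR9 and COR1 of complex III at 350.7 and 355.8 nt and at 288.4 and 289.5 nt, and NDI1, the internal NADH dehydrogenase, at 342.6 and 340.9 nt.

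Cytochrome c oxidase was represented by COX4 (282.6 and 281.2 nt), COX8 (262.0 and 258.4 nt) and COX5A (257.0 and 259.5 nt). ATP synthase was represented by ATP17 (265.3 and 279.6 nt), ATP14 (258.7 and 259.2 nt) and ATP2 (252.1 and 257.5 nt). All 11 lie in windows without a same-strand feature. Several subunits of the same enzymes stayed outside, among them ATP1 at 224.7 and 227.1 nt, SDH1 at 196.9 and 196.4 nt, SDH3 at 103.2 and 103.7 nt and ATP7 at 97.8 and 98.1 nt, so the endpoints within one complex ranged widely. COX5B, the paralog of COX5A, lay at 77.0 and 78.2 nt. The tricarboxylic acid cycle had 1 member among 12 ORFs, MDH1.

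Sequence-specific transcription factors had 17 of 90 (18.9%), with medians of 155.1 and 161.5 nt over the list. Besides HAC1, at 394.0 and 393.9 nt, the longest were AFT2, an iron regulator, at 381.3 and 378.8 nt, and HAP4, the limiting activator subunit of respiratory genes, at 358.7 nt in both replicates. FHL1, of ribosomal protein genes, lay at 330.3 and 336.4 nt. STE12, of the mating response, lay at 289.5 and 298.1 nt, and ROX1, the hypoxic repressor, at 278.5 and 297.4 nt. The shortest were MAC1, the copper regulator, at 270.4 and 264.8 nt and GLN3, of nitrogen use, at 252.4 and 251.3 nt. HAP5 is the only one of the 17 with a same-strand feature in its window.

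Cell wall and plasma membrane glycoproteins had 12 of 65 (18.5%), with medians of 154.7 and 157.1 nt. Within the list, YPS1, an aspartyl protease, was the longest at 328.5 and 328.3 nt, followed by SIM1, and TOS6 and BGL2 were the shortest. SLG1, a sensor of wall stress, lay at 292.5 and 298.5 nt, HSP150 at 295.0 and 294.9 nt and KRE6, of glucan synthesis, at 276.6 and 276.2 nt. RNA-binding regulators and mRNA decay factors had 10 of 60 (16.7%), with medians of 138.9 and 140.8 nt. NAM7 was the longest at 370.2 and 366.5 nt, and SSD1, a translational repressor of wall protein mRNAs, followed at 307.6 and 304.4 nt. NAB2 and CTH1, a poly(A)-binding and a zinc-finger protein, were the shortest, at 256.1 and 257.6 nt and at 255.5 and 251.3 nt. None of these 22 members has a same-strand feature in its window.

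Protein phosphatases and their subunits had 6 of 45 (13.3%), led by the catalytic subunit SIT4 at 334.1 and 342.8 nt and the regulatory subunit RTS1 at 307.9 and 304.2 nt, with PSR1 at 257.1 and 250.4 nt and NEM1 the shortest. RNA polymerase II, Mediator and general transcription factors had 8 of 67 (11.9%). MED1 and SSN2 of Mediator lay at 337.0 and 332.3 nt and at 333.3 and 332.9 nt, and RPB2 and RPC10 of the polymerase at 261.5 and 264.7 nt and at 257.4 and 255.8 nt. Small GTPases and their regulators had 9 of 77 (11.7%), from BAG7 at 375.4 and 366.8 nt and RGS2 at 318.3 and 325.7 nt to AGE1 at 277.8 and 280.4 nt and CDC25, the exchange factor of Ras, at 251.6 and 252.3 nt. The sterol list had 3 of 28 (10.7%), with ERG25 at 298.6 and 295.1 nt, ERG11 at 270.7 and 269.9 nt and ERG29 at 254.6 and 252.2 nt. The medians over these 4 lists ranged from 117.4 to 138.5 nt in the replicates, near those of all ORFs.

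Arrestin-like adaptors and ubiquitin ligases had 5 of 56 (8.93%), with SLX8 at 343.9 and 344.8 nt and APC1 at 280.8 and 279.2 nt beside ART5 and RSP5. Chromatin remodelling and histone modification had 8 of 104 (7.69%), among them SAS5 at 353.8 and 352.9 nt and SNF11 at 261.8 and 261.1 nt. Mitochondrial import and carriers had 5 of 64 (7.81%), from MRS4, an iron carrier, at 360.1 and 358.8 nt and TOM22 at 292.4 and 284.5 nt to SAL1 at 252.0 and 251.1 nt. Glycolysis had 2 of 27 (7.41%), PFK27 at 333.0 and 335.0 nt and PFK2 at 262.7 and 266.3 nt. Cleavage, polyadenylation and termination factors, whose products make these ends, had 2 of 29 (6.90%), NPL3 at 262.4 and 269.2 nt and SYC1 at 265.2 and 264.9 nt. These shares lie close to that of all ORFs.

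The list of protein kinases had 6 of 100 (6%). It ran from YCK3 at 363.5 and 357.7 nt and MCK1 at 334.6 and 333.5 nt to SAK1 at 275.9 and 278.2 nt and CKA1 at 258.6 and 267.9 nt. Cyclins had 2 of 34 (5.88%), CLN3 at 277.6 and 260.6 nt and CLB2 at 253.6 and 256.4 nt. Nuclear pore and transport had 3 of 52 (5.77%), NUP192 at 268.5 and 278.3 nt, KAP95 at 272.5 and 273.4 nt and SEC13. Membrane transporters had 6 of 111 (5.41%), with TPO1, a polyamine transporter, at 386.5 and 370.3 nt, CAN1, the arginine permease, at 285.1 and 288.2 nt and ARN1, a siderophore transporter, at 253.3 and 252.9 nt. Vesicle trafficking had 5 of 124 (4.03%), with ERV14 at 322.9 and 338.8 nt, the clathrin heavy chain CHC1 at 278.4 and 276.9 nt, and the adaptor subunits APL1 at 251.0 and 264.0 nt and APS1 at 257.0 and 253.1 nt.

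Histones had 0 of 11, a list too short to read a share from. Its medians of 164.4 and 165.8 nt lay above the 122.3 and 123.6 nt of all ORFs. The lists of protein synthesis had low shares. Cytosolic ribosomal proteins had 2 of 137 (1.46%), RPS20 and RPL38, with RPL38 at 257.1 and 261.7 nt, and the list's median was 99.2 and 100.6 nt. Ribosome biogenesis had 2 of 107 (1.87%), IMP3 at 342.2 and 342.6 nt and MPP10 at 256.9 and 260.7 nt. Mitochondrial ribosomal proteins had 1 of 71 (1.41%), MRPL39 at 260.2 and 253.6 nt.

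**Figure D5:**
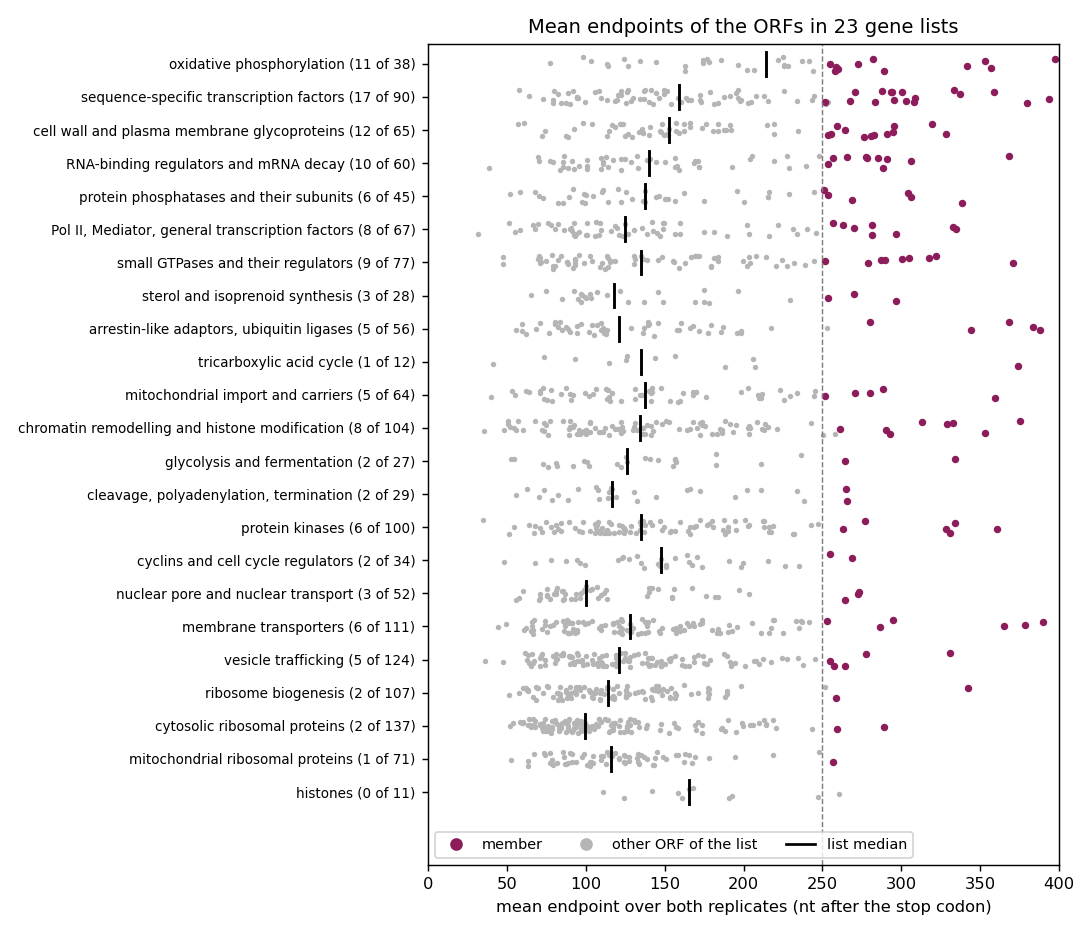
Mean endpoint over both replicates in nt for the ORFs of 23 gene lists, with members red, other ORFs past the read minimum grey, the list's median as a bar and the number of members of the ORFs past the minimum in brackets; grey points right of the dashed line at 250 nt exceeded it in 1 replicate only. Oxidative phosphorylation has the highest share, 11 of 38, and its median lies right of the others.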

How the data were processed

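Both biological replicates of strain JZY65 were measured by 3' READS. Reads were aligned with Bowtie, per the submitters' processing notes; version, settings, build and treatment of multiply matching reads were not given in the sources used here. Coordinates are those of the deposited tables and equal RefSeq's R64 for 338 of 339 members (LTO1 differs).

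The deposited signal columns, named in the file headers, hold read totals in the 400-nt window, at its highest position and inside the feature. They are whole multiples of 0.858 in replicate 1 and 0.940 in replicate 2, by which they were divided to recover reads. Where the highest position had up to 2000 reads, 99.998% and 99.995% of positions came out within 0.1 of a whole number. The values per position were deposited as percent of the highest position, per the file headers. Endpoints computed from recovered reads departed from the deposited ones by no more than 0.0390 nt in replicate 1 and 0.0945 nt in replicate 2.

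Python 3.11.15, numpy 2.4.6, pandas 2.3.3 and scipy 1.17.1 were used. Membership used deposited values, and shares and entropies used recovered reads. With 1 group there was no count model, and the members had been chosen on the profiles, so no test was run. The members and gene lists were chosen with earlier results of these data known. Genes were named by rank among members with a standard name: all led by the last 10 positions of the window in both replicates, the 2 longest and 2 shortest per list, the 8 with most reads, and the 4 to 6 at the extremes of position number, leading share, proximal share, replicate difference, ORF share, neighbour distance, passage beyond a same-strand feature and the border at 250 nt. Others, including all without a standard name, were named after their values were seen. Neighbours are as deposited, and overlaps were counted among the tables' 6198 features. The measures were tested on simulated profiles. Read minimum, location measure, threshold, window, pooling and replicates were varied. One convergent pair is not reported here.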

Additional observations from a re-analysis of the deposited data

How the results depend on the processing

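The number of ORFs with distal ends, 339, became 126 with a threshold of 300 nt in place of 250 nt, and 149 with the mean over positions 1 to 300. Other choices kept it within 1.5 times: it was 346 with a minimum of 100 recovered reads, 234 with a minimum of 500, 377 with the median position in place of the mean (312 of them shared), 268 with the mean over positions 1 to 350, and 396 in the pooled table. With 1 replicate left out it ran from 353 to 381. Members with more than 20% of reads within 150 nt, 14 by the rule as applied, numbered 9 with a minimum of 500 reads and 41 by the median position. With 1 replicate left out they numbered 18 to 24, the 24 being those without replicate 1. Members led by the last 10 positions of the window in both replicates, 16 in number, were 8 with a minimum of 500 reads and 18 to 20 with 1 replicate left out. Windows that meet a same-strand feature, 27 in number, were 18 with a minimum of 500 reads, 37 by the median position and 29 to 33 with 1 replicate left out. The median effective number of positions, 9.0, ran from 8.76 to 9.28 with 1 replicate left out. Fewer ORFs enter at a minimum of 500 and fewer conditions apply with 1 replicate, by construction. A higher threshold or a shorter window can likewise only remove members. The cause of the other movements was not tested.

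No paired analysis was possible because there is 1 group. The planned count of a TATATA motif was not run, since no sequence was used here. Ends beyond 400 nt were outside the measurement, and shares in members near the read minimum carry the widest intervals.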

Other observations

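Small complexes and families outside the 23 lists were put together after the values were seen, so their counts carry no weight beyond description, beside 6.92% of all ORFs past the read minimum. In the deubiquitinating module of SAGA, which removes ubiquitin from histone H2B, 3 of 4 genes were members. UBP8, the protease, lay at 334.0 and 332.0 nt, SGF11 at 324.4 and 333.3 nt and SGF73 at 287.4 and 292.8 nt, while SUS1 lay at 171.0 and 176.3 nt. Both S-adenosylmethionine synthetases were members, SAM2 at 278.3 and 278.4 nt and SAM1 at 254.5 and 255.0 nt. In the Shu complex 2 of 4 were, SHU1 at 313.6 and 317.7 nt and CSM2, against SHU2 at 151.0 and 145.7 nt and PSY3 at 110.1 and 108.0 nt. Of the Pumilio family, PUF2, PUF3 and JSN1 were members, and PUF6 (92.5 and 89.9 nt) and PUF4 (70.1 and 70.0 nt) were not. Larger sets gave 10 of 77 for pre-mRNA splicing, led by BUD31 at 387.0 and 387.3 nt, 5 of 28 for autophagy, 4 of 28 for iron-sulfur protein biogenesis, 3 of 12 for the anaphase-promoting complex, 2 of 9 for oligosaccharyltransferase and 2 of 4 for casein kinase 2.

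Duplicated genes were compared as well. Of 430 paralog pairs with both genes past the read minimum, 52 held a member. A count of pairs cannot be set beside the 6.92% of single ORFs past the minimum that were members. In 8 of the 52 pairs both genes were members. These were SAM2 with SAM1, JSN1 with PUF2, SIZ1 with NFI1 and VHS1 with SKS1. The same held for YEA6 with YIA6, SKN1 with KRE6, SKN7 with HMS2 and YMR181C with YPL229W. In the other 44 pairs the partner's mean endpoint had a median of 152.5 nt, against medians of 122.3 and 123.6 nt over all ORFs past the minimum in the replicates, and 32 of the 44 partners lay above the median of all. The range was 63.0 to 248.4 nt, and its upper end is limited because these partners are not members.

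The 36 ORFs above 250 nt in 1 replicate only, most of them in replicate 2, included YJL213W at 284.7 and 247.7 nt and HHO1, the linker histone, at 249.7 and 270.9 nt. Per chromosome, members ran from 1 of 71 ORFs on chromosome I (1.41%) to 41 of 451 on chromosome XV (9.09%), beside 6.92% of all ORFs past the read minimum. These 2 are the extremes of all chromosomes, and no test was run.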
